A study of Mus musculus with 2 samples.

Results

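Macrophages of 1 mosaic squamous cell carcinoma were compared by how much of their spatial code was the code named ZC6. The ZC6-poor macrophages held higher levels of interferon-induced genes, led by the chemokine gene Cxcl9, at 378 CPM (UMIs of the gene per 1000000 gene UMIs, where a UMI, or unique molecular identifier, is a counted RNA molecule) against 131 CPM in the ZC6-rich macrophages. The ZC6-rich macrophages as a group held more Spp1 and Cd9, the genes of osteopontin and of a tetraspanin. Spp1 did not follow the ZC6 share evenly. It was at 830 CPM in ZC6-rich macrophages but at 985 CPM in the 125 ZC6-poor macrophages whose leading code was another, ZC5. Most genes differed little between the groups. The cells were chosen in the tumour named replicate 3, the one with code ZC6, from barcodes with a minimum of 1000 gene UMIs and 500 genes and no more than 10% of UMIs from mitochondrial genes. A macrophage had at least 1 Csf1r UMI, no Cd3e UMI, C1qa, C1qb and C1qc together at 0.2% or more of its gene UMIs, and at least 50 code UMIs. Of 6913 barcodes in this tumour and 12211 in the series, 3202 passed as macrophages. The members were chosen by the ZC6 share of their code UMIs: the macrophages were ranked by it and cut into 4 groups of 800 or 801 cells, and the 801 cells of the lowest group (ZC6-poor) were set against the 801 of the highest (ZC6-rich).

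The tumours were grown under the skin of FVB mice from the squamous carcinoma lines CIT6 (with YFP) and CIT9 (with RFP), injected together. They had no treatment. ZipSeq prints oligonucleotide codes by light on living cells of a tissue section, and here regions of YFP+, RFP+ and mixed tumour cells were coded before CD45+ leukocytes were sorted and sequenced with 10x 3' v3 chemistry. The labels do not say which code stands for which region, nor give the sex or age of the animal or whether the tumours came from separate animals, so ZC6 is used below as a code and not as a place. Replicate 3 carried the codes ZC1, ZC5 and ZC6 and held 170328781 gene UMIs. Replicate 1 carried ZC1, ZC2 and ZC5 and held 89040909 gene UMIs, so it offers no repeat of the comparison. The libraries shared 9 barcodes under the wide filter. With 1 tumour there is no replicate check: no test was made, and each interval is a 95% interval that covers counting error only. A fold is the ratio of the CPM of UMIs summed over the cells of each group.

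Tumour macrophages arise largely from blood monocytes and take up different states in different places of a tumour. Interferon gamma, made mainly by activated T and NK cells, acts on macrophages, which then make the chemokines CXCL9 and CXCL10, guanylate-binding proteins and antigen-presenting molecules. CXCL9 draws T cells that bear the receptor CXCR3. Macrophages with high SPP1 (osteopontin), CD9 and lipid-handling genes form another state that is often described in tumours.

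The ZC6 share set the groups, so its values describe them and support nothing. Over the 3202 macrophages it ran from 15.6% to 89.7%, with a median of 67.1% and an SD of 10.7 percentage points across cells, against a median counting error of 2.55 points in a cell. The last cell inside the ZC6-poor group had 60.1351% and the first outside it 60.1449%. At the other end the first cell inside had 72.7471% and the last outside 72.74%. The median share was 54.5% in ZC6-poor cells, 63.9% and 69.7% in the middle groups and 76.6% in ZC6-rich cells. ZC6 was thus the main code even of most ZC6-poor cells: 658 of the 801 had ZC6 as their leading code, 125 had ZC5 and 18 had ZC1. The groups were therefore graded mixtures of codes and not cells of separate codes.

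**Figure D1:**
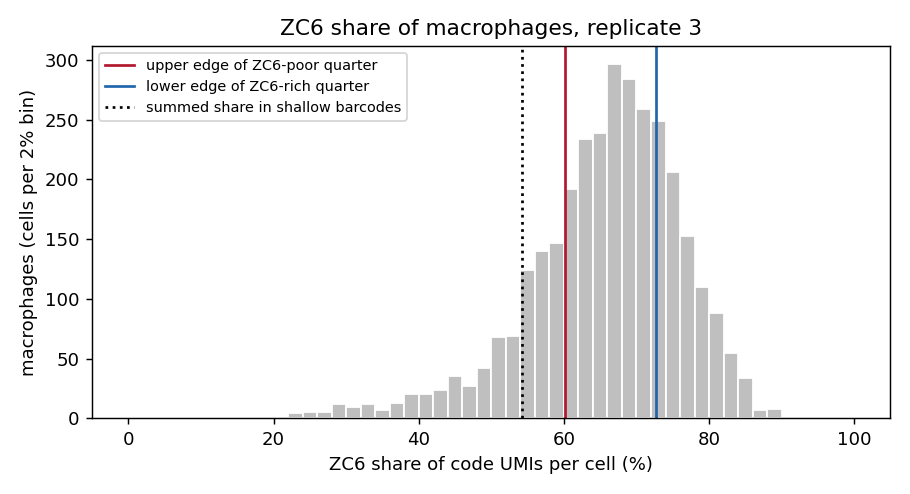
Number of macrophages at each ZC6 share of code UMIs (percent, x axis) in the replicate 3 tumour, with the limits of the ZC6-poor and ZC6-rich groups. The shares form 1 broad peak around the median of 67.1%, and the limits fall on its flanks at 60.1% and 72.7%.

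The rest of the code was mainly ZC5, at a median of 35.4% in ZC6-poor and 17.5% in ZC6-rich cells, followed by ZC1 at 10.0% and 5.13%. ZC6-poor cells had a median of 335 code UMIs and ZC6-rich cells 399. Code was also present outside cells: the 103841 barcodes with 10 to 100 gene UMIs held a mean of 1.78 code UMIs, of which 54.2% were ZC6, 31.2% ZC5 and 14.5% ZC1. Loose code thus had about the ZC6 share of the ZC6-poor group. With the codes of these shallow barcodes subtracted, Cxcl9 was 2.90-fold higher in ZC6-poor cells. The same 17 genes were then at least 1.5-fold lower in ZC6-rich cells as in the main comparison below. Macrophages had a median of 317 code UMIs, and the median ZC6 shares of the groups stayed at 54.5% and 76.6%. The subtraction could thus hardly change the ranking and is no check on loose code. The part of loose code in the ranking was not tested. The share was not particular to macrophages either. In 731 T cell barcodes of the same tumour the median ZC6 share was 66.4%. A T cell barcode had at least 1 Cd3e UMI, no Csf1r UMI and at least 50 code UMIs.

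Both groups carried the genes of macrophages at like levels. Csf1r, the receptor for the macrophage growth factor CSF1, stood at 658 CPM in ZC6-poor and 655 CPM in ZC6-rich cells, and C1qa, a chain of complement C1q, at 6295 and 6104 CPM. Both genes were used to choose the cells. Among markers that were not used, Adgre1 (the antigen F4/80) was detected in 94.0% and 95.5% of cells, Cd68 in 99.3% of each group and Fcgr1 in 97.9% and 97.8%, against 4.24%, 12.3% and 5.20% of T cell barcodes. The T cell barcodes were chosen for the lack of Csf1r and had a median of only 6367 gene UMIs. Their low shares are therefore no independent check of the macrophages. Depth was alike in the ZC6-poor and ZC6-rich groups, with median gene UMIs of 25965 and 25110 and median mitochondrial shares of 3.798% and 3.879%.

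Differences between the groups were few. Of 5224 genes with at least 20 CPM over both groups, leaving out the genes that chose the cells, 17 were at least 1.5-fold lower in ZC6-rich cells (0.325%) and 1 was at least 1.5-fold higher (0.0191%). At a smaller cut-off, a ratio of 5 to 4 between the groups, 74 were lower (1.42%) and 22 higher (0.421%). The median log2 ratio of ZC6-rich to ZC6-poor was 0.01, and 47.4% of genes had a ratio below 1. The spread over genes was narrow, with an SD of 0.12.

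**Figure D2:**
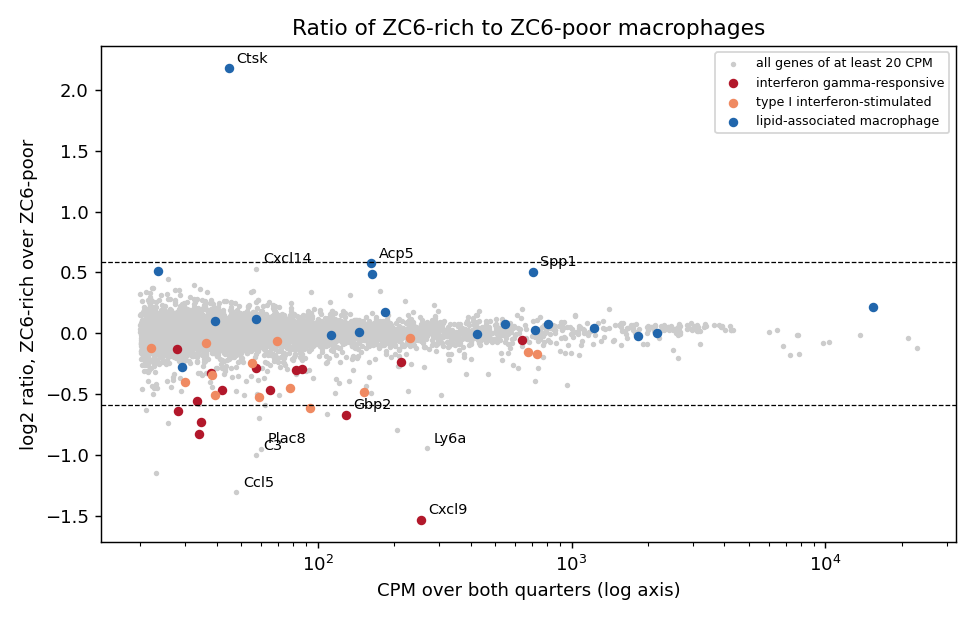
Log2 ratio of ZC6-rich to ZC6-poor CPM (y axis) against mean CPM (log axis) for the 5224 genes, with named genes marked. Most genes lie near 0, Cxcl9 lies lowest, and Ctsk lies highest.

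Promoter sequences of 4 genes that were lower in ZC6-rich cells are shown because interferon acts on such genes through short DNA elements: the interferon-stimulated response element and the gamma-activated site. Each sequence is the 100 bases before the start of the gene from RefSeq (build GRCm38.p6), written along the strand of the gene. Capitals mark matches to GAAANNGAAA on either strand or to TTCNNNGAA, which reads alike on both strands. The windows lie at chr4:156200819-156200918 (minus strand) for Isg15, chr3:142620563-142620662 (plus) for Gbp2, chr5:21372573-21372672 (plus) for Fgl2 and chr5:92328080-92328179 (minus) for Cxcl9.
Isg15: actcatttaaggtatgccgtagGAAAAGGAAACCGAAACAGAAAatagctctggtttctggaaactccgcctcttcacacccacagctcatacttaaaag
Gbp2: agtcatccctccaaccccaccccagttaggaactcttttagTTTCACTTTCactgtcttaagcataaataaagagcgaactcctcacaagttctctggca
Fgl2: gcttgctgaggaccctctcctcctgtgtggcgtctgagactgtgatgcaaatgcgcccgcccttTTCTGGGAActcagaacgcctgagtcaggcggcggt
Cxcl9: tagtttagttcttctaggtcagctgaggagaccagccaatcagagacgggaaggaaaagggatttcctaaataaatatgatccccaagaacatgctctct

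Isg15 and Gbp2 hold the response element, Fgl2 holds the gamma-activated site, and neither string of letters is in the window shown for Cxcl9. Over the 250 bases before the start, GAAANNGAAA was found in 2.98% of all 32851 promoter windows and TTCNNNGAA in 7.02%. Of the 12 genes with the lowest ratios at 50 CPM or more, 10 were matched to a promoter, all but Ly6a and Hmox1. Of these 10, Gbp2, Isg15 and Slamf8 held the response element and Fgl2 the gamma-activated site. Of the 12 genes with the highest ratios 8 were matched, and of these Cxcl14 and Spp1 held the response element and Cxcl14 the gamma-activated site. Fewer than 80% of members were matched for those 12 genes and for the interferon lists (16 of 23 and 22 of 30), so a comparison of shares between the sets is void, and nothing is read from the motifs about the direction of a gene. A match of letters describes the promoter and says nothing of binding in these cells.

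Cxcl9 had the lowest ratio of all 5224 genes. Its level was 378 CPM (371 to 386) in ZC6-poor cells, 218 and 195 CPM in the middle groups, and 131 CPM (126 to 136) in ZC6-rich cells. It was thus lower at each step of the ZC6 share, as were 4.805% of all genes, and 2.89-fold (2.77 to 3.01) higher at the poor end than at the rich end. The transcript was unevenly spread among cells. A Cxcl9 UMI was found in 32.1% of ZC6-poor cells (257 cells) and in 24.3% of ZC6-rich cells (195 cells), against 5.75% of T cell barcodes, whose median depth was lower at 6367 gene UMIs. With each cell thinned to 5000 UMIs these shares were 20.79%, 13.997% and 4.06%. The cells that had it also held more of it, at a mean of 34.8 UMIs against 15.7. The top 10% of cells held 88.6% of all Cxcl9 UMIs in ZC6-poor and 92.8% in ZC6-rich cells. Among the macrophages with the 1% highest Cxcl9 values, 13 were ZC6-poor and 3 ZC6-rich. With these left out and the groups cut anew, Cxcl9 stood at 252 and 113 CPM.

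The direction for Cxcl9 turned where cells were ranked by the number of ZC6 UMIs in place of the share: it was then 221 CPM at the low end and 253 CPM at the high end. That ranking followed the amount of code, since its ends differed in median code UMIs (119 and 1125) and in median gene UMIs (22138 and 31691), while their median ZC6 shares were 63.7% and 69.4%. Under it the medians of the interferon gamma and type I interferon lists described next were 0.12 and 0.17 on the log2 scale, and that of MHC class I 0.04.

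Interferon gamma-responsive genes were lower in ZC6-rich cells as a group. Of the 15 list members with at least 20 CPM (of 23 in the file), 15 had a ratio below 1, 5 were at least 1.5-fold lower, 9 were lower by the smaller cut-off of 5 to 4 and none was higher by it, with a median log2 ratio of -0.46 against 0.01 over all genes. Over all genes 47.4% had a ratio below 1, 0.325% were at least 1.5-fold lower and 1.42% lower by 5 to 4. Gbp2, a guanylate-binding protein of defence against intracellular pathogens, stood at 158, 114, 125 and 99.6 CPM from ZC6-poor to ZC6-rich, or 1.59-fold (1.51 to 1.67) higher in ZC6-poor cells. The GTPase genes Iigp1 and Igtp and the serine protease inhibitor gene Serpina3g were at lower levels. Serpina3g was at 43.4 CPM in ZC6-poor and 24.4 CPM in ZC6-rich cells, Iigp1 at 43.1 and 26.0 CPM, and Igtp at 34.22 and 22.04 CPM. Gbp2 and Gbp2b are close paralogs whose reads the counting could split, and Gbp2b was at 15.0 and 6.52 CPM.

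Not every interferon gamma target differed so far. Cxcl10, which encodes the other CXCR3 ligand of the list, was at 231 CPM in ZC6-poor and 196 CPM in ZC6-rich cells, 1.18-fold (1.13 to 1.22) higher in the former. The middle groups were lower than both ends, at 127 and 129 CPM. Few cells carried much of Cxcl10: 10 cells held 37.2% of its ZC6-poor UMIs and 10 cells 50.8% of its ZC6-rich UMIs. The chemokine gene Cxcl16 was nearly level at 647 and 623 CPM. Ciita, the switch gene of MHC class II, was at 62.6 and 51.3 CPM, and the transcription factor gene Irf1 at 95.7 and 78.3 CPM.

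**Figure D3:**
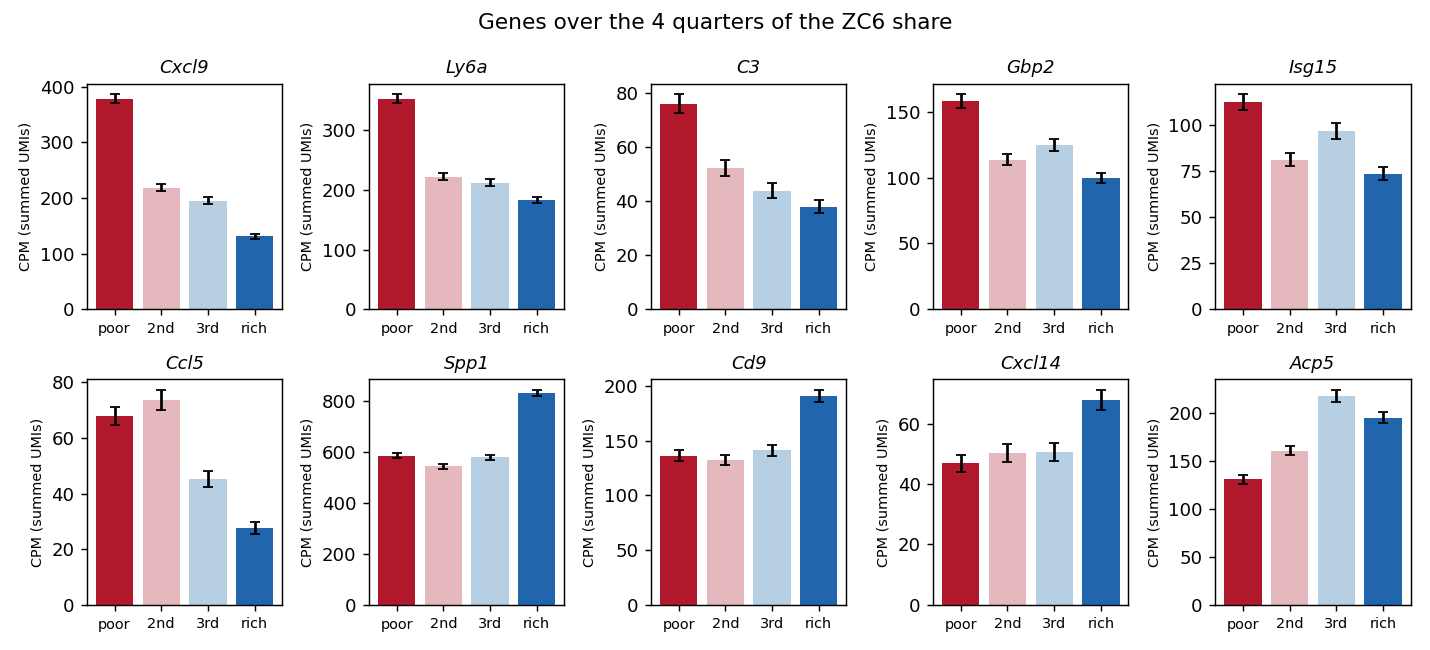
CPM with 95% counting intervals (y axes) in the 4 groups of the ZC6 share (x axes, poor to rich) for named genes. Cxcl9 is lower at each step, from 378 to 131 CPM, whereas Spp1 lies between 544 and 584 CPM in the first 3 groups and is highest in ZC6-rich cells at 830 CPM.

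Ly6a, C3 and AW112010, which interferon is also known to induce, were among the lowest ratios outside that list. Ly6a encodes the surface protein Sca-1 and stood at 353, 222, 212 and 183 CPM from ZC6-poor to ZC6-rich. C3, the central protein of the complement cascade, stood at 75.9, 52.4, 43.8 and 38.0 CPM, a 2.00-fold (1.85 to 2.17) difference between the ends. Cfb, the complement factor that forms the alternative pathway convertase with C3, was at 25.5 and 16.5 CPM at the ends. Ly6a and C3 were thus lower at every step of the ZC6 share. AW112010 was at 261, 209, 223 and 150 CPM. T cell barcodes had a Ly6a UMI in 68.0% and an AW112010 UMI in 94.0%, so neither gene is peculiar to macrophages. Fgl2, a fibrinogen-like protein with immunoregulatory roles, was at 72.6 and 44.9 CPM, and Slamf8, a receptor of the SLAM family, at 60.3 and 42.3 CPM. The interferon-inducible Ifi47 was at 74.4 and 49.5 CPM.

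Genes of the type I interferon response pointed the same way by smaller amounts. All 14 measured members (of 30) had a ratio below 1, 1 was at least 1.5-fold lower, 7 were lower by 5 to 4 or more, and the median log2 ratio was -0.29. The shares over all genes were 47.4%, 0.325% and 1.42%. Isg15, a ubiquitin-like modifier, was at 112, 81.2, 96.8 and 73.6 CPM from ZC6-poor to ZC6-rich. The most abundant members differed little: the membrane protein gene Ifitm3 was at 771 and 686 CPM and Ifi27l2a at 707 and 636 CPM. Rsad2, the antiviral enzyme viperin, was at 18.6 and 3.00 CPM, below the 20 CPM floor, with 70.7% of its ZC6-poor UMIs in 10 cells. Ifi209, at 69.3 and 48.2 CPM, belongs to a family of similar genes that reads may not tell apart.

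Antigen-presentation genes were lower in ZC6-rich cells by little but without exception. All 8 measured genes of MHC class II presentation had a ratio below 1, with 2 of them past the ratio of 5 to 4 and a median log2 ratio of -0.22. Cd74, the invariant chain, was at 23798 CPM in ZC6-poor and 21951 CPM in ZC6-rich cells, and H2-Ab1 at 7683 and 6776 CPM. H2-Eb1 differed most, at 190 and 135 CPM. All 16 measured genes of MHC class I presentation also had a ratio below 1, with a median of -0.21. By comparison, 47.4% of all genes had a ratio below 1 and 1.42% were lower by 5 to 4. The peptide transporter Tap1 was at 133 and 103 CPM, B2m, the light chain of class I molecules, at 2804 and 2430.4 CPM, and the class I heavy chain gene H2-D1 at 7036 and 6566 CPM. Reads of the H2-Q genes may be shared between copies.

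Signals to T cells and inflammatory cytokines differed by like amounts. Of 6 measured checkpoint and costimulatory genes, 5 had a ratio below 1 and 2 passed the ratio of 5 to 4: Cd274, which encodes PD-L1, was at 30.5 and 22.5 CPM, and Cd40 at 40.6 and 27.2 CPM. All 7 measured cytokine genes were below 1, with 2 past 5 to 4 and a median of -0.21. For both lists, the shares over all genes were 47.4% below 1 and 1.42% lower by 5 to 4. Il1rn, the antagonist of the interleukin-1 receptor, was at 67.3 and 47.6 CPM, while Il1b was at 431 and 372 CPM and Tnf at 41.7 and 39.8 CPM, within counting error. The largest difference among the 7 was thus in an antagonist.

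Chemokines that attract monocytes and T cells made a mixed group. Of 13 measured members, 11 had a ratio below 1, 6 were lower and 1 was higher by 5 to 4 or more, with a median of -0.24. Among all genes 47.4% had a ratio below 1, 1.42% were lower and 0.421% higher by 5 to 4. Ccl5, a chemokine that draws T cells, was at 67.8, 73.6, 45.2 and 27.5 CPM from ZC6-poor to ZC6-rich, 2.47-fold (2.25 to 2.71) higher at the poor end, and was found in 22.97% and 17.35% of cells at the ends, fewer than the 48.4% of T cell barcodes, a cell type known to make it. In each group 10 cells held much of it, with 52.8% of its ZC6-poor and 51.8% of its ZC6-rich UMIs. The CCR2 ligands Ccl2, Ccl7 and Ccl12 were each higher in ZC6-poor cells: Ccl2 was at 524 and 415 CPM, Ccl7 at 359 and 253 CPM, and Ccl12 at 812 and 618 CPM. Ccl8 was at 1101 and 822 CPM, with 85.1% of its ZC6-poor UMIs in the top 10% of cells. Cxcl14 went the other way, at 46.8, 50.3, 50.5 and 67.6 CPM, 1.44-fold (1.34 to 1.56) higher in ZC6-rich cells. The neutrophil-attracting Cxcl2, the most abundant of the list, was nearly level at 1498 and 1568 CPM.

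Among 8 measured genes of recently arrived monocytes, 4 had a ratio below 1 and 4 above, and the median was -0.06. Over all genes 47.4% had a ratio below 1. Of the 8, 3 were lower by 5 to 4 or more, against 1.42% of all genes, and none was higher by it. Plac8 and Ly6a, both also known to respond to interferon, were the 2 past 1.5-fold, a fold that 0.325% of all genes reached in this direction. Plac8 was at 78.3, 51.2, 36.9 and 40.6 CPM, and Ly6c2, the Ly6C antigen of inflammatory monocytes, at 18.7 and 7.03 CPM, below the floor. Ccr2, the receptor by which monocytes leave the marrow, was at 375 and 342 CPM, and S100a4 was higher in ZC6-rich cells at 1502 against 1307 CPM. A UMI of Ly6c2 or Plac8 was found in 36.8% of ZC6-poor and 27.3% of ZC6-rich cells. With all such cells left out and the groups cut anew from the rest (542 cells at each end), Cxcl9 was still higher in ZC6-poor macrophages, at 251 against 118 CPM. When cells with Ccr2 were left out too and the groups were again cut anew, each end held only 89 cells. Cxcl9 was then at 128 CPM in ZC6-poor and 141 CPM in ZC6-rich cells, with list medians of 0.01 for interferon gamma and 0.05 for MHC class II. Lyz1, at 31.6 and 14.3 CPM, cannot be told apart with certainty from its paralog Lyz2.

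On the other side, the genes higher in ZC6-rich cells formed a short list. Spp1, which encodes the secreted matrix protein osteopontin, was at 584 CPM (574 to 594), 544 and 578 CPM in the middle groups and 830 CPM (818 to 842) in ZC6-rich cells, 1.42-fold (1.39 to 1.45) higher than at the poor end. Cd9, a tetraspanin, was at 136, 132, 141 and 190 CPM, a fold of 1.40. Both were thus highest in the ZC6-rich group, with no steady order over the other 3. The shares of cells with Spp1 did not follow, at 78.9% of ZC6-poor and 77.3% of ZC6-rich cells, while the cells that had it held a mean of 21.8 and 31.3 UMIs. Spp1 UMIs were also found in 21.2% of T cell barcodes.

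Acp5 and Ctsk, genes of lysosomal enzymes that osteoclasts use on bone, rested in part on single cells. Acp5 was at 131, 161, 218 and 195 CPM, and 1 cell held 19.0% of its ZC6-rich UMIs. Without the top cell of each group the fold was 1.41 in place of 1.49, without the cells of the highest doublet scores the log2 ratio was -0.06, and 58.1% of T cell barcodes also had an Acp5 UMI. Ctsk, the one gene past 1.5-fold, was at 16.3, 21.2, 47.2 and 73.8 CPM, yet 10 cells held 95.2% of its ZC6-rich UMIs and 1 cell held 77.7% of its ZC6-poor UMIs. It was detected in 9.74% of ZC6-poor and 11.1% of ZC6-rich cells. Without the cells of the highest doublet scores its log2 ratio was -2.00, so no direction is given for Ctsk. The other genes with high ratios differed by 1.20-fold to 1.27-fold, among them Ckb, the brain-type creatine kinase, at 155 and 197 CPM, and Gpr137b, a lysosomal membrane protein, at 83.1 and 105 CPM.

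Lipid-associated macrophage genes as a list had a median close to level, though most members were higher in ZC6-rich cells. Of 19 measured members 15 had a ratio above 1 and 4 below, and the median log2 ratio was 0.08. By 5 to 4 or more, 5 were higher (Ctsk, Acp5, Mmp12, Spp1 and Cd9). Ctsk and Acp5 count among these 5 although without the highest doublet scores their log2 ratios were -2.00 and -0.06. Over all genes 47.4% had a ratio below 1 and 0.421% were higher by 5 to 4 or more. Trem2, the lipid-sensing receptor of this state, was at 533 and 561 CPM and Lgals3 at 1212 and 1247 CPM. Apoe, the main lipid carrier that macrophages secrete, was at 14237 CPM in ZC6-poor and 16558 CPM in ZC6-rich cells. Gpnmb had only 18 UMIs in each group.

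Resident-type and scavenger genes had a median of -0.11, and of 12 measured members 10 had a ratio below 1 and 3 were lower by 5 to 4 or more. These were Ccl8, the lectin gene Mgl2, at 138 and 104 CPM, and F13a1, a coagulation factor subunit, at 69.3 and 53.6 CPM. By the same ratio 1.42% of all genes were lower, and 47.4% had a ratio below 1. Mrc1, the mannose receptor, was at 307 and 278 CPM and Folr2, a folate receptor, at 90.4 and 85.6 CPM. Other programmes differed little. The hypoxia and glycolysis list had no member of 18 past the ratio of 5 to 4 and a median of 0.07: Ldha, lactate dehydrogenase, was at 682 and 732 CPM and Vegfa at 75.5 and 72.0 CPM. Of 29 measured cell cycle genes none passed it, and 17.2% of ZC6-poor and 15.7% of ZC6-rich cells had 0.5% or more of their UMIs in the list. Heat shock, endoplasmic reticulum stress, NF-kappaB feedback and immediate early genes, which tissue digestion is known to induce, had medians from -0.07 to 0.04 with no member past it. Of 10 haem and iron genes only Hmox1, haem oxygenase, passed it. Hmox1 was at 133 and 84.6 CPM, but 1 cell held 29.2% of its ZC6-poor UMIs and without the top cells the groups differed by 1.20-fold. Without cells marked for other-lineage UMIs, by the narrow definition given below, its log2 ratio was 0.23, so no direction is given for Hmox1. The list of alternative activation and repair had a median of 0.05, and 1 of its 11 measured members passed the ratio: Arg1, which breaks down arginine, at 264, 224, 213 and 190 CPM.

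**Figure D4:**
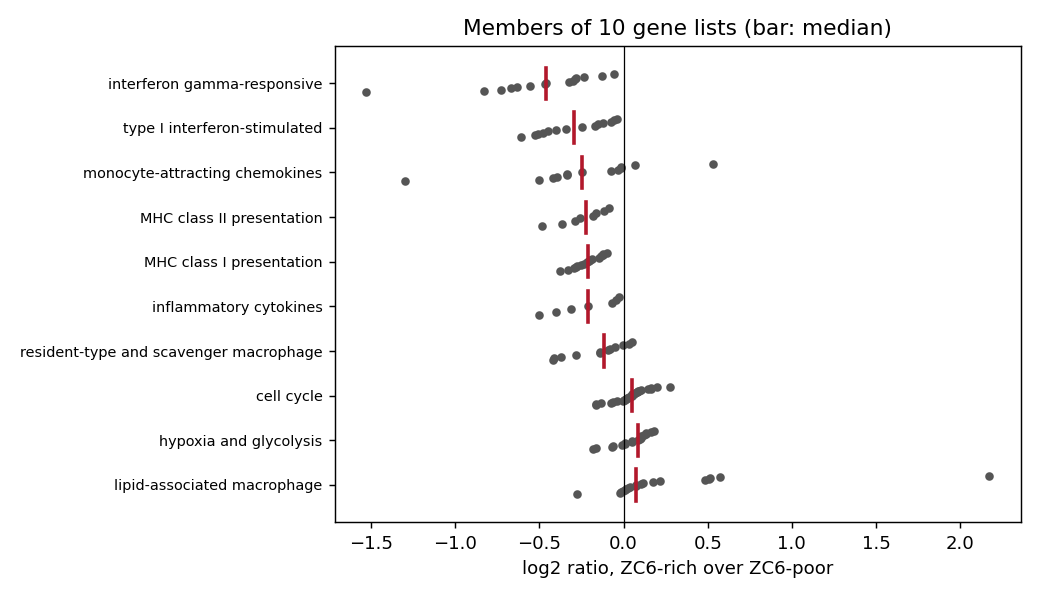
Log2 ratio of ZC6-rich to ZC6-poor CPM (x axis) of each measured member of the gene lists (rows), with list medians marked. Of the 10 lists shown, the interferon gamma-responsive list lies farthest to the left, with a median of -0.46, and the lipid-associated list at 0.08.

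Cutting the ranking into 10 bins of 319 to 321 cells showed that the ends carried much of the differences. Cxcl9 was at 503 CPM in the lowest bin, between 257 and 290 CPM in the next 3, between 148 and 199 CPM in bins 5 to 8, and at 139 and 132 CPM in the last. Ly6a was at 483 CPM in the lowest bin and 169 CPM in the highest. Spp1 was high at both ends, with 728 CPM in the lowest bin and 1124 CPM in the highest, and lay between 486 and 643 CPM in the other 8. Apoe had the reverse shape: it was at 12766 CPM in the lowest bin, peaked at 21081 CPM in bin 6, and was at 13856 CPM in the highest. Its difference between the outer groups thus hides a middle that exceeded both.

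**Figure D5:**
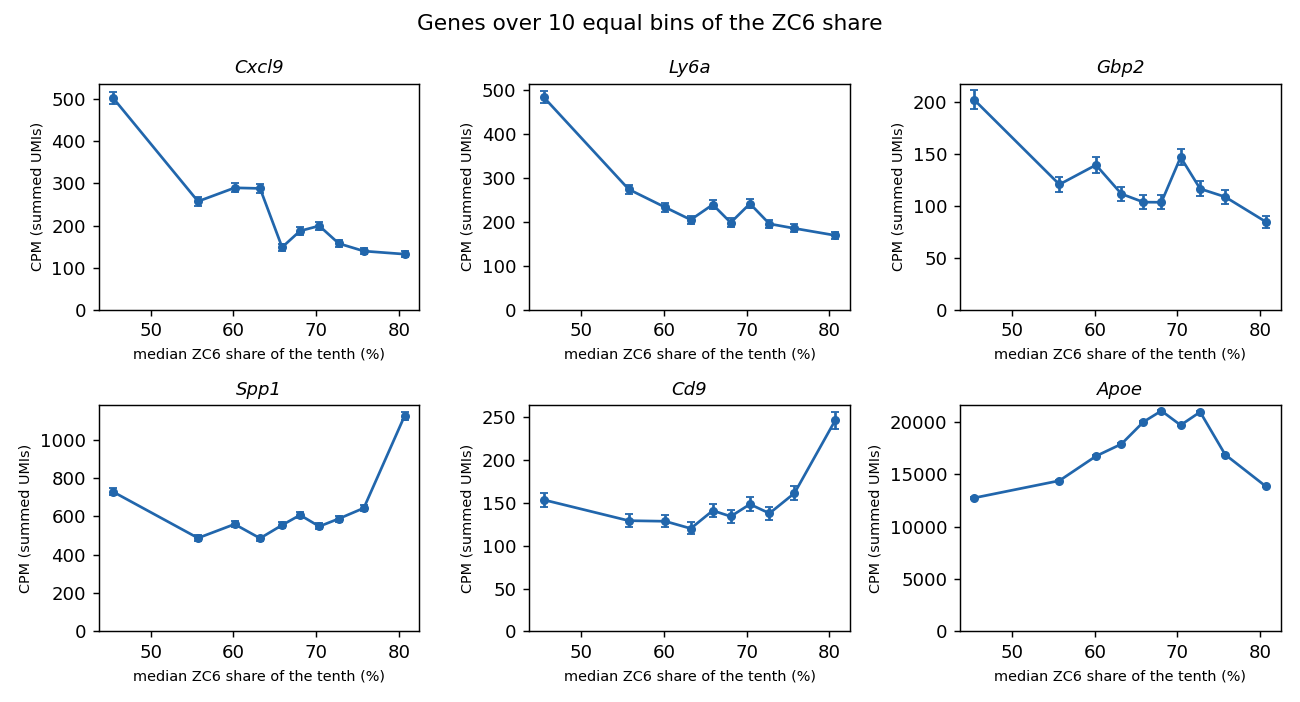
CPM with 95% counting intervals (y axes) in 10 bins of the ZC6 share (x axes, low to high) for named genes. Cxcl9 is highest in the lowest bin at 503 CPM, Spp1 is highest in the top bin at 1124 CPM, and Apoe is highest in the middle.

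The ZC6-poor group was not uniform in its other codes. The 125 cells led by ZC5 stood farther above ZC6-rich cells in interferon genes than the ZC6-poor group as a whole: Cxcl9 was at 550 CPM, 4.20-fold (3.97 to 4.44) above, Ly6a at 647 CPM, 3.52-fold (3.35 to 3.71) above, and C3 3.42-fold, Isg15 2.39-fold and Gbp2 2.36-fold above. Against these cells 79 of 5219 genes were at least 1.5-fold lower in ZC6-rich cells (1.51%) and 31 higher (0.594%), and at 5 to 4 there were 246 lower (4.71%) and 257 higher (4.92%). The ZC5-led cells sum to 3767764 gene UMIs against 23319968 in ZC6-rich cells, so the counting error of their ratios is larger. In them Spp1 was at 985 CPM, above the 830 CPM of the ZC6-rich group. The 658 ZC6-led cells of the ZC6-poor group had Cxcl9 at 346 CPM, 2.64-fold (2.53 to 2.76) above ZC6-rich cells, and Spp1 at 514 CPM. The higher Cxcl9 was thus seen in both. Spp1 was higher than in ZC6-rich cells among ZC5-led cells and lower among ZC6-led cells. The 18 cells led by ZC1 had Plac8 at 343 CPM, 8.45-fold (7.11 to 9.98) above ZC6-rich cells, and Spp1 at 251 CPM, in 477986 gene UMIs. Interferon genes were higher in them too: Isg15 was 2.59-fold (2.07 to 3.19), Ifi47 2.92-fold (2.25 to 3.72), C3 3.36-fold, Ly6a 2.82-fold and Cxcl9 2.57-fold above ZC6-rich cells. Against these 18 cells, 260 of 5211 genes were at least 1.5-fold lower in ZC6-rich cells and 497 higher. Folds past 1.5 were thus far more common here than in the main comparison, and these few genes are examples only.

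Markers of other cells were low in both groups, and most of these lists were higher in ZC6-poor macrophages. The 11 T cell markers summed to 30.2 CPM in ZC6-poor and 23.7 CPM in ZC6-rich cells. The 9 NK markers summed to 46.1 and 31.6 CPM, chiefly through Klrk1, which encodes NKG2D, at 32.1 and 19.3 CPM. The 9 neutrophil markers summed to 60.3 and 26.8 CPM, a ratio of ZC6-rich to ZC6-poor of 0.444 (0.403 to 0.488), with the granule genes Ngp and Camp at 0 in both. Single cells held much of this: 1 cell had 51.7% of the S100a9 and 1 cell 46.0% of the S100a8 UMIs of the ZC6-poor group. The 9 dendritic markers summed to 27.5 and 22.7 CPM, and the 7 B and plasma cell markers to 83.7 and 94.5 CPM. Fibroblast markers summed to 34.7 and 27.2 CPM, endothelial to 16.0 and 11.7 CPM, mast cell to 1.48 and 0.600 CPM and erythroid to 0.212 and 0.386 CPM. Of the 12 epithelial and carcinoma markers, Krt5, Krt14, Krt6a, Krt8, Krt17 and Trp63 were at 0 in both groups and the sum was 6.99 and 4.16 CPM. A definition of other-lineage UMIs narrower than these lists marked 23.8% of ZC6-poor and 21.1% of ZC6-rich cells. UMIs of the B and plasma list alone were found in 69.8% and 73.3% of cells, and of the fibroblast list in 41.7% and 36.2%. Without the marked cells Cxcl9 was 2.79-fold higher in ZC6-poor cells, but cells with UMIs of these lists remained. What part markers of other cells have in the differences was not tested. The highest doublet scores fell on 5.49% of ZC6-poor and 4.87% of ZC6-rich cells. The tumour reporters, which macrophages could hold after engulfing tumour cells, were close to 0: YFP had 3 UMIs in ZC6-poor and 4 in ZC6-rich cells, and RFP 8 and 5.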

How the data were processed

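The deposited matrices hold raw UMI counts per feature and barcode, which the authors had not normalised. They were made with Cell Ranger 4.0 on mm10, per the submitters' processing notes. The annotation release and how multi-mapping reads were treated are not given in the sources used. Counts of genes that shared a name were left out of the naming of genes. UMIs were summed over the cells of a group and scaled to 1000000, with an exact Poisson interval for a level and an exact Clopper-Pearson interval for a ratio, both at 95%. Genes entered the counts at 20 CPM or more, and those named by ratio were the 12 highest and 12 lowest at 50 CPM or more, beside chosen genes and members of 31 lists. The members, lists and alternatives were chosen with earlier results of these data known. No test was made, since cells are not replicates and 1 tumour holds ZC6. The threshold of scrublet marked 0 of 6734 barcodes and so had failed, and the 371 highest scores were left out in 1 alternative only. The ratios, their intervals and the counts past a fold were tested on simulated Poisson sums. These hold no spread between cells, so that test says nothing of how such spread affects the counts here. The 26 alternatives comprised 22 planned and 4 added after seeing the data, and a further added split cut the ZC6-poor group by its ZC1 to ZC5 ratio. Versions were Python 3.11.15, numpy 2.4.6, scipy 1.17.1, pandas 2.3.3, scanpy 1.11.5 and matplotlib 3.10.9.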

Additional observations from a re-analysis of the deposited data

How the results depend on the processing

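The main comparison had 1 gene at least 1.5-fold higher and 17 at least 1.5-fold lower in ZC6-rich macrophages. The number higher was 3 with at least 200 code UMIs, 2 with code UMIs matched, 0 with cells weighted alike, 5 with 10% free RNA subtracted, 3 without cells with other-lineage UMIs, 2 at a mitochondrial share of at most 5% and 2 without the 1% of cells highest in Cxcl9. The number lower was 5 with the ranking cut into 2 groups in place of 4 and 4 at a fold of 2. Of the 17 lower in the main comparison, 10 were also counted as lower when thinned to 5000 UMIs and 11 with cells weighted alike. The 1 gene higher in the main comparison was counted as higher in neither. The numbers higher and lower were 14 and 62 with the ends of 10 bins, 25 and 1 with the ranking by ZC6 UMIs, 4 and 26 thinned to 5000 UMIs, 3 and 9 at a C1q share of 0.5%, 11 and 54 at a floor of 5 CPM, 0 and 5 at 100 CPM, and 22 and 74 at a ratio of 5 to 4. They were 70 and 76 without cells with Ly6c2, Plac8 or Ccr2 (89 cells at each end), 3 and 9 without cells with Ly6c2 or Plac8, and 3 and 10 without cells led by ZC1 or ZC5. These last 3 settings and the one without the cells highest in Cxcl9 were chosen after seeing the data. In each of them the groups were cut anew from the cells that remained. The same holds for the settings without the highest doublet scores and without cells with other-lineage UMIs.

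Ranked by ZC6 UMIs, 15 genes that had been at least 1.5-fold lower had log2 ratios above 0: Cxcl9 0.20, C3 0.50, Plac8 1.02, Ly6a 0.51, AW112010 0.16, Fgl2 0.21, Gbp2 0.24, Hmox1 0.50, Isg15 0.33, Ifi47 0.15, Igtp 0.13, Iigp1 0.54, Klrk1 0.62, Serpina3g 0.048 and Cfb 0.51. Without cells with Ly6c2, Plac8 or Ccr2, Cxcl9 was at 0.14, Isg15 at 0.15, Iigp1 at 0.19, Serpina3g at 0.037 and Cfb at 0.43. Hmox1 was at 0.15 with the ends of 10 bins and at 0.23 without cells with other-lineage UMIs, and Ctsk at -2.00 without the highest doublet scores. The cause of these changes was not tested. In the other 20 settings that recompute the ratios, Cxcl9 ranged from -1.93 to -0.88, Spp1 from 0.32 to 0.69, and the interferon gamma list median from -0.74 to -0.16. No paired analysis was possible because only 1 tumour holds ZC6, and no library could be left out.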

Other observations

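Other macrophage programmes that were measured lay close to level. The 10 genes of Fc and complement receptors had a median log2 ratio of -0.08, and 1 was lower in ZC6-rich cells by a ratio of 5 to 4 or more. Among all genes 1.42% were lower by that ratio. The 1 gene was Fcgr4, the receptor for IgG2 antibodies that interferon gamma is known to induce. It was at 75.4 CPM in ZC6-poor and 54.7 CPM in ZC6-rich cells, and is also a member of the interferon gamma list above. The high-affinity receptor gene Fcgr1 was at 347 and 308 CPM. The 10 measured genes of phagocytosis and uptake of dead cells had a median log2 ratio of -0.06 and none passed that ratio, with the receptor tyrosine kinase gene Axl at 136 and 129 CPM. Of 13 measured transcription factor genes of macrophages, with a median of -0.02, none passed it, with Spi1, which encodes PU.1, at 580 and 599 CPM.

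The ZC6-poor group was also split at the median of its ratio of ZC1 to ZC5 UMIs, a split added after seeing the data. Cxcl9 was 2.60-fold above ZC6-rich cells in the 400 cells richer in ZC1 and 3.16-fold above in the 401 cells richer in ZC5. Plac8 was 2.55-fold above in the first and 1.32-fold above in the second.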
